A study of Drosophila melanogaster with 12 samples.

Results

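The odorant receptor genes of Drosophila melanogaster were examined for their association with Polycomblike (Pcl) in the Gr5a+ sweet taste neurons of flies on a control or a sugar diet. Members were all Ensembl BDGP6 genes named Or with a number and a letter, together with Orco. The rule found 60 genes among the 18119 that entered the test, and every one of the 60 could be tested. They occupy 53 separate loci, because 13 of them lie so close to a relative that they share measured fragments in 6 clusters.

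Odorant receptors are membrane proteins of olfactory sensory neurons in the antenna, the maxillary palp and the larval dorsal organ. Each neuron usually expresses a chosen receptor, or a small set of them, which binds the odor, together with Orco, the shared co-receptor that forms the ion channel with it. Pcl is a subunit of Polycomb Repressive Complex 2 (PRC2), which methylates histone H3 at lysine 27 and keeps developmental genes silent. Gr5a+ cells are gustatory neurons, so these genes belong to a sensory system other than that of the cells profiled.

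Pcl association was measured by Targeted DamID (TaDa), in which a Dam methylase fused to Pcl marks adenines in GATC sites near the places Pcl binds. All 6 libraries came from flies with the genotype Gr5a;tubulinGAL80ts>UAS-LT3-Dam::Pcl, in which the Gr5a driver directs the fusion to sweet taste neurons and temperature-sensitive GAL80 holds it back until the flies are warmed. There were 3 replicates on the control diet (5% sucrose) and 3 on the sugar diet (30% sucrose), each of DNA from 300 pooled heads of male and female flies. Adults were gathered 2 days after eclosion, and the labels put them on their food from day 5 to day 6 at 20 °C and then at 29 °C for a day, whereas the sample titles give 4 days. Every value is a log2 ratio of Dam::Pcl to Dam alone on the scale the authors deposited. On that scale 0 is a relative point, not a measured absence of Pcl. A gene's level was the length-weighted mean of this ratio over its span and 1 kb to either side. Such a level is a mean over all driven cells: Pcl at more cells and more Pcl per cell cannot be told apart. The labels call the replicates biological, and p-values measure the spread between these pools. Replicates of a diet may have been set against the same Dam-only profile, as described under the processing. In that case the spread between Dam-only libraries enters neither the p-values nor the correlations within a diet. A difference between the Dam-only profiles of the diets would then be part of every diet difference, without replication.

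The libraries of a diet resembled each other more than those of the other diet, with Pearson's r across genes of 0.961 to 0.984 within a diet and 0.722 to 0.864 between diets (genes are not independent replicates). The driver's own gene, Gr5a, had a mean of 0.23 in control flies and 0.19 in sugar-fed flies (adjusted p = 0.570, limma), and the bitter receptor gene Gr66a had means of -0.27 and -0.42 (adjusted p = 0.209). DamID reports binding and not transcripts, so these levels do not show which cells were driven. Pcl itself had means of -0.51 in control flies and -0.23 in sugar-fed flies (adjusted p = 0.0166, limma). After the GC correction described below, Gr5a differed by -0.32 (adjusted p = 0.0227, limma) and Gr66a by -0.28 (adjusted p = 0.0462). In that fit Pcl differed by 0.23 (adjusted p = 0.0442). Between 11.8% and 12.5% of fragments in a library were at exactly 0. They were kept in the means, and with fragments at 0 in all libraries left out the members' median control level was 0.218.

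Odorant receptor genes are short, from 1198 to 5224 bp (median 1466.5 bp), and the window of a member held 5 to 33 GATC fragments, with a median of 13. In the 250 bp before the start site, the sequence GATC occurred in 12 of the 60 members (20.0%) and in 38.2% of 13941 protein-coding genes, so a member's own promoter was often read from fragments that reach in from further away. The sequences GAGAG, the core bound by GAGA factor, and GCCAT, the core bound by Pleiohomeotic, were present on either strand in 26.7% and 36.7% of members and in 25.7% and 35.7% of protein-coding genes. The following 4 fragments, chosen after their values were seen, show what was measured. They come from the RefSeq Release 6 (dm6) assembly and are written 5′ to 3′ on the strand of the gene, with the GATC sites that bound each fragment in capitals. Those of Or67d and Orco lie in the members with the highest and the third highest control level, and those of Or65c and Or98b in the members with the largest fall and rise.
Or67d: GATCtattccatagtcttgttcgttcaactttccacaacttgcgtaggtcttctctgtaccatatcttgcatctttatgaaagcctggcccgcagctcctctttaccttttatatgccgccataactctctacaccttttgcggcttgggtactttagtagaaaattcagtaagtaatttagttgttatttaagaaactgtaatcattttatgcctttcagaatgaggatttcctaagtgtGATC
Orco: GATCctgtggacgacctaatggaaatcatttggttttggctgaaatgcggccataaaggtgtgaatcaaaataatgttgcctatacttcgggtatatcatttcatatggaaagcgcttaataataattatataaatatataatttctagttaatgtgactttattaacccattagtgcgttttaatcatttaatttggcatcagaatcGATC
Or65c: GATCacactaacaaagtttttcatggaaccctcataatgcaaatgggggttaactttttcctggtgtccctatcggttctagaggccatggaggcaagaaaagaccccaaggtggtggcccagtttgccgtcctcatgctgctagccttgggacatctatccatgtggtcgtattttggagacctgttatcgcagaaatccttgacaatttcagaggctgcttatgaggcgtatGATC
Or98b: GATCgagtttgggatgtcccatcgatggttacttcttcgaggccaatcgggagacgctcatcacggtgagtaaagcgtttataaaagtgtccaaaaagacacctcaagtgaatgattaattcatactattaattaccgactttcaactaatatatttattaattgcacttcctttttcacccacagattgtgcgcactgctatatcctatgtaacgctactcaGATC

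The Or67d fragment (chr3L:10274191-10274435, 245 bp, 38.4% GC) overlaps a coding exon and read 1.41, 1.75 and 1.45 in control replicates 1 to 3 and 0.57, 1.36 and 1.26 on the sugar diet. The Orco fragment (chr3R:5412053-5412264, 212 bp, 32.1% GC) lies 248 bp inside the gene, in neither a coding exon nor a UTR, and read 1.98, 2.09 and 1.81 against 0.95, 1.5 and 1.63. Both of these were above 0 in all 6 libraries, and both were lower in every sugar library than in any control library. The Or65c fragment (chr3L:6328602-6328839, 238 bp, 47.5% GC) overlaps a coding exon and went from 0.71, 0.26 and 0.34 to -0.72, -0.11 and -0.55. The Or98b fragment (chr3R:28353384-28353610, 227 bp, 39.6% GC), also at a coding exon, went from 0.76, 0.84 and 0.67 to 1.51, 1.68 and 1.56. In the fragments of Or65c and Or98b the diets did not overlap either. These members were taken for their largest fall and rise, so the opposite directions follow from the choice. The share of all fragments in which the diets did not overlap was not computed. Over all genes the diets did not overlap in 59.9%. No fragment was tested on its own.

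On the control diet most odorant receptor genes had log2 ratios slightly above 0. Their median level was 0.22, against 0.04 over all genes tested. A control mean above 0 was found in 50 of 60 members (83.3%), against 54.2% of all genes. The ionotropic receptor genes had a median of 0.18 with 72.7% above 0, and the gustatory receptor genes 0.08 with 61.7%. Members of lowest GC content had a median of 0.266, against 0.264 for all genes in that range. In the middle and highest GC ranges members had 0.30 and 0.14, against 0.12 and -0.12. The DNA 5 to 25 kb from the members had a median of 0.26, against 0.14 around all genes. These differences in level were not tested. High levels were rare: 2 members (3.33%) exceeded 1, against 7.46% of all genes, and 47 members lay within 0.5 of 0. The medians over members in control replicates 1 to 3 were 0.28, 0.21 and 0.20, and on the sugar diet they were 0.04, 0.24 and 0.06. Sugar replicate 2 was the highest of its diet in 39 members and sugar replicate 1 the lowest in 34.

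Or67d, the receptor for the male pheromone cis-vaccenyl acetate (chr3L:10273204-10274624), had the highest level. It read 1.83, 1.90 and 1.61 on the control diet and 1.21, 1.59 and 1.84 on the sugar diet. The diets overlapped and the difference of -0.23 ± 0.18 (SE) did not pass the test (adjusted p = 0.315, limma with Benjamini-Hochberg adjustment), although it did after quantile normalization (-0.34, adjusted p = 0.00974). Its control mean of 1.78 was at percentile 96.2 of all genes. Fragments upstream of the gene and around its end differed in opposite directions. The fragment centred 1205 bp before the start site, with its centre outside the 1 kb flank, went from 4.31, 4.35 and 4.34 to 4.57, 5.24 and 5.38. That centred 1460 bp after the start site, just past the 1421-bp span, went from 2.60, 2.70 and 1.82 to 0.12, 1.02 and 0.90. Neither fragment was tested on its own. Or85a, an antennal receptor for a fruit ester (chr3R:8321747-8323054), was next with 1.18, 1.07 and 1.11 on the control diet, and its window overlaps Poxm, a transcription factor gene. The other members above 0.7 on the control diet were Orco, Or67a, Or45a and Or30a, at 0.85, 0.85, 0.77 and 0.74. Or67d and Or85a lay above these by more than the spread of their replicates, whereas Orco, Or67a, Or45a and Or30a overlapped their neighbours in that order.

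Orco (chr3R:5407183-5412406, minus strand), without which most odorant receptors do not reach the ciliary membrane, read 0.91, 0.82 and 0.83 on the control diet and 0.87, 0.91 and 1.15 on the sugar diet. The difference was 0.12 ± 0.08 (SE) and did not pass the test (adjusted p = 0.272). The signal was uneven along the gene. The fragment centred 73 bp before its start site read 2.25, 2.04 and 1.92 on the control diet and 1.27, 2.50 and 2.59 on the sugar diet, so it was above 1 in every library.

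At the other end, Or45b, an odorant receptor of the larva, was lowest on the control diet with -0.48, -0.42 and -0.35, and read -0.48, -0.48 and -0.47 on the sugar diet. Or85f followed at -0.27, -0.38 and -0.44, and Or43b, whose window overlaps the ubiquitin ligase gene Cul1, at -0.27, -0.23 and -0.26. Or2a, Or23a and Or47a completed the lowest 6. Of these, Or43b fell to -0.47, -0.56 and -0.57 on the sugar diet and Or47a fell from -0.12, -0.02 and -0.11 to -0.40, -0.44 and -0.32. The plot of all members by replicate shows how narrow the range is for most of the family.

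**Figure D1:**
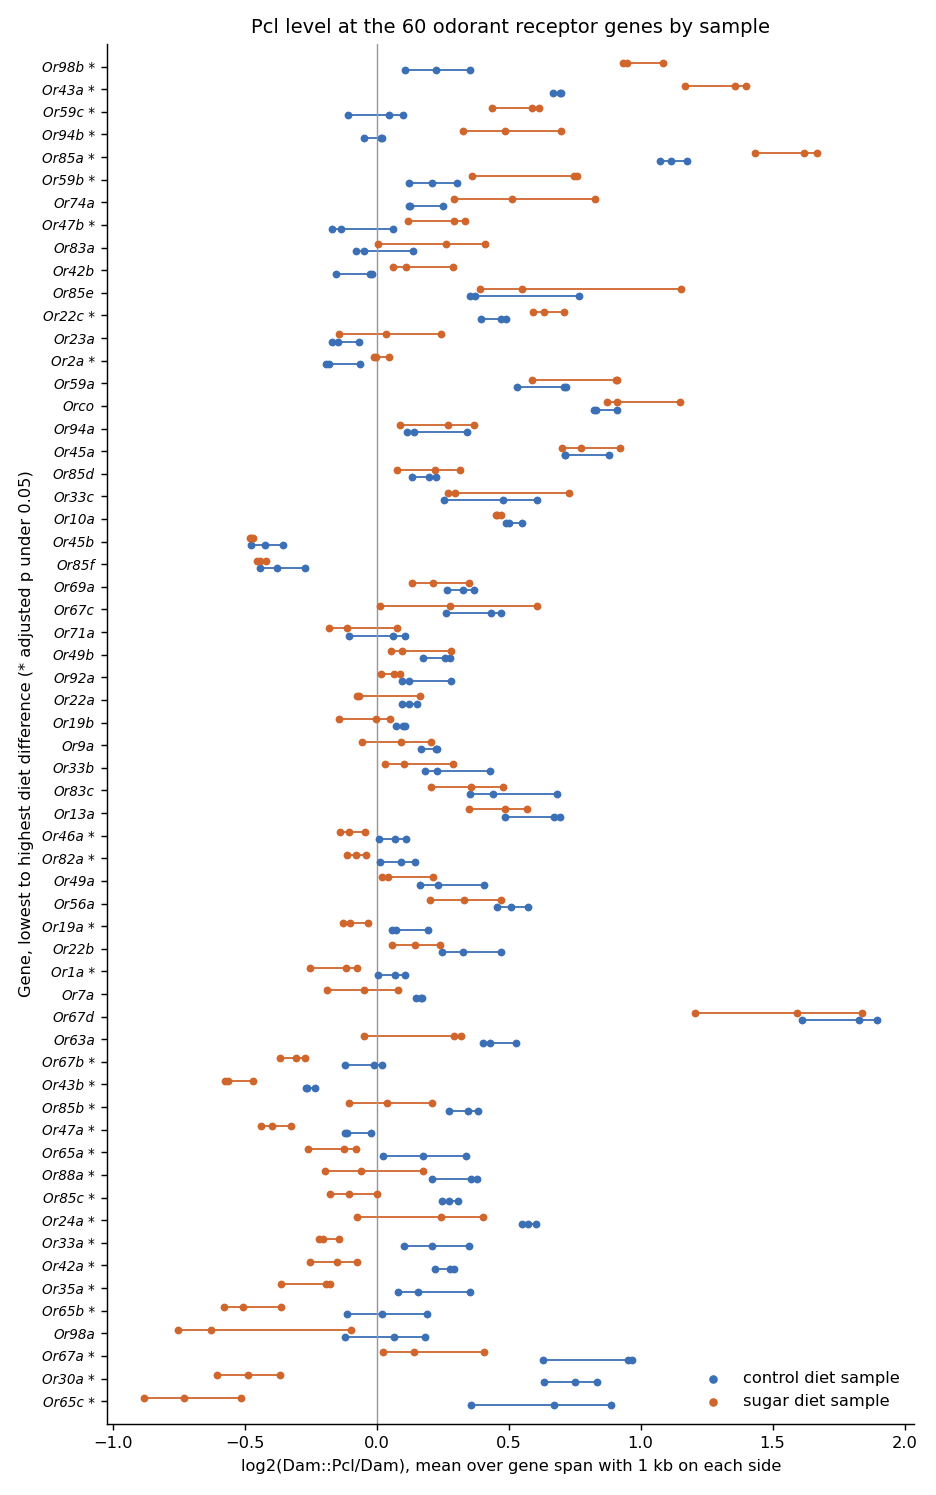
Mean log2 ratio of Dam::Pcl to Dam over each odorant receptor gene and 1 kb to either side (horizontal axis) for the 60 members (vertical axis), with a point for each of the 3 control diet and 3 sugar diet replicates. Or67d and Or85a are the 2 members with control means above 1, and 47 of 60 control means lie within 0.5 of 0.

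Peaks were called in each library as runs of enriched fragments, and only those that recurred in all 3 libraries of a diet were used. The window of 1 member, Or10a (1.67%), met such a peak, against 6.55% of all genes tested. Or10a, a receptor for methyl salicylate (chrX:11413467-11417422, minus strand), is annotated over the same span as the gustatory receptor gene Gr10a, so signal there cannot be given to either. The peak was called on both diets at chrX:11418321-11419048, 899 to 1626 bp before the start site. The fragment at 916 bp before the start had a mean of 2.51 in control flies and 3.48 in sugar-fed flies. Over the gene as a whole Or10a read 0.50, 0.55 and 0.49 on the control diet and 0.45, 0.47 and 0.45 on the sugar diet. These groups did not overlap, but the difference of -0.05 missed the threshold (adjusted p = 0.282), and without the flanks it was -0.19 (adjusted p = 0.0169). Or67d and Orco met a peak in 2 control replicates each, Or85a in 1 control replicate and Or43a in 1 sugar replicate. The share of all genes with a peak in only some replicates was not computed.

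Between the diets, 28 members changed at an adjusted p under 0.05 (46.7%), against 48.0% of all genes tested, so the family's share was close to the background. Of these, 9 rose on the sugar diet (15%, against 22.3% of all genes) and 19 fell (31.7%, against 25.7%). The control and sugar values were fully separate in 36 members (60%), against 59.9% of all genes. The median difference was -0.13 (all genes -0.01), and 41 members (68.3%) were lower on the sugar diet, against 51.0% of all genes. Most differences were small: 51 members differed by less than 0.5, and 2, Or65c and Or30a, by more than 1. The median standard error of a member's difference was 0.0808. Replicate SDs had a median of 0.0763 in control flies and 0.120 in sugar-fed flies. Only Or30a passed a test against a fold of 1.5 (treat, adjusted p = 0.0339). The number of calls dropped whichever library was left out. It was 17, 17 and 18 without control replicates 1 to 3 and 23, 24 and 17 without sugar replicates 1 to 3. The share of all genes called dropped too, to 36.6%, 33.6% and 41.3%, and to 40.6%, 42.2% and 41.2%. Members that rose numbered 6, 5 and 6 without control replicates 1 to 3 and 10, 5 and 5 without sugar replicates 1 to 3.

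Or65c, which together with Or65a and Or65b is expressed in a trichoid neuron of the antenna, fell most (chr3L:6327608-6329069). It read 0.89, 0.67 and 0.36 on the control diet and -0.88, -0.51 and -0.73 on the sugar diet. The groups lay far apart, and the difference was -1.35 ± 0.16 (SE; adjusted p = 0.00294, limma). The change lay at both ends of the gene, and the fragments in the middle overlapped between the diets. The fragment centred 1428 bp after the start site went from 1.72, 1.35 and 1.03 to -2.15, -1.16 and -1.34, and that centred 172 bp before the start from 1.16, 1.1 and 0.60 to -0.88, -0.52 and -1.02. The mean over the gene and 5 kb to either side differed by 0.01 (adjusted p = 0.945). Its neighbour Or65b, which shares fragments with it, fell by 0.51 (adjusted p = 0.00938) and Or65a by 0.33 (adjusted p = 0.0359).

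Or30a, a receptor of larval olfactory neurons (chr2L:9111814-9113285), had the next largest fall. It read 0.75, 0.83 and 0.64 on the control diet and -0.49, -0.37 and -0.61 on the sugar diet, a difference of -1.23 ± 0.08 (SE; adjusted p = 0.00168). Here the wider region moved as well, with a difference of -0.68 over 5 kb to either side. Or67a, an antennal basiconic receptor (chr3L:9529067-9531386), went from 0.97, 0.95 and 0.63 to 0.02, 0.41 and 0.14, a difference of -0.66 ± 0.14 (adjusted p = 0.0127). With 5 kb to either side the difference of Or67a was -0.23 and was not called.

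Smaller falls included receptors with known odors. Or35a, a broadly tuned receptor of a coeloconic neuron, went from 0.35, 0.08 and 0.16 to -0.36, -0.19 and -0.18 (adjusted p = 0.0127). Or42a, a palp and larval receptor for fruit odors, went from 0.28, 0.29 and 0.22 to -0.25, -0.07 and -0.15 (adjusted p = 0.00404). Its close relative Or42b, an antennal receptor for fermentation odors, read -0.02, -0.16 and -0.02 on the control diet and 0.11, 0.29 and 0.06 on the sugar diet, and missed the threshold (adjusted p = 0.0628). Whether Or42a and Or42b responded differently was not tested.

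Or98b, a member with no group in the list of organs (chr3R:28352242-28353620), rose most. It read 0.23, 0.11 and 0.35 on the control diet and 0.93, 0.95 and 1.09 on the sugar diet, a difference of 0.76 ± 0.08 (SE; adjusted p = 0.00238). The DNA 5 to 25 kb away differed by -0.02. Within its window the fragment centred 1610 bp after the start site was highest, at 1.28, 1.35 and 1.21 against 2.35, 2.57 and 2.07. Or43a, an antennal receptor for benzaldehyde and related odors, rose from 0.70, 0.67 and 0.69 to 1.36, 1.40 and 1.17, a difference of 0.62 ± 0.07 (adjusted p = 0.00259). Its surroundings moved the same way, by 0.46, but the fragment centred 524 bp before its start went from 0.71, 0.86 and 0.55 to 0.11, -0.04 and 0.08.

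Or85a, already high on the control diet, rose to 1.43, 1.62 and 1.67, a difference of 0.45 ± 0.07 (adjusted p = 0.00629), and was the highest member on the sugar diet by its mean. Or94b, a larval receptor, rose from 0.01, 0.02 and -0.05 to 0.33, 0.49 and 0.70 (adjusted p = 0.0101), while its tandem neighbour Or94a differed by 0.04 (adjusted p = 0.757), and both lie within Nha2. The palp receptor Or59c rose from 0.05, -0.11 and 0.10 to 0.59, 0.62 and 0.44 (adjusted p = 0.00472) and the adjoining Or59b, a receptor for methyl acetate, from 0.31, 0.12 and 0.21 to 0.36, 0.76 and 0.75 (adjusted p = 0.0402), both inside CG43795. Rises also included Or47b, a pheromone receptor of trichoid neurons, by 0.33, and Or22c and Or2a by 0.19 and 0.16. The fragment profiles of Or67d, Orco, Or65c and Or98b set the members that were high on the control diet beside those with the largest fall and rise.

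**Figure D2:**
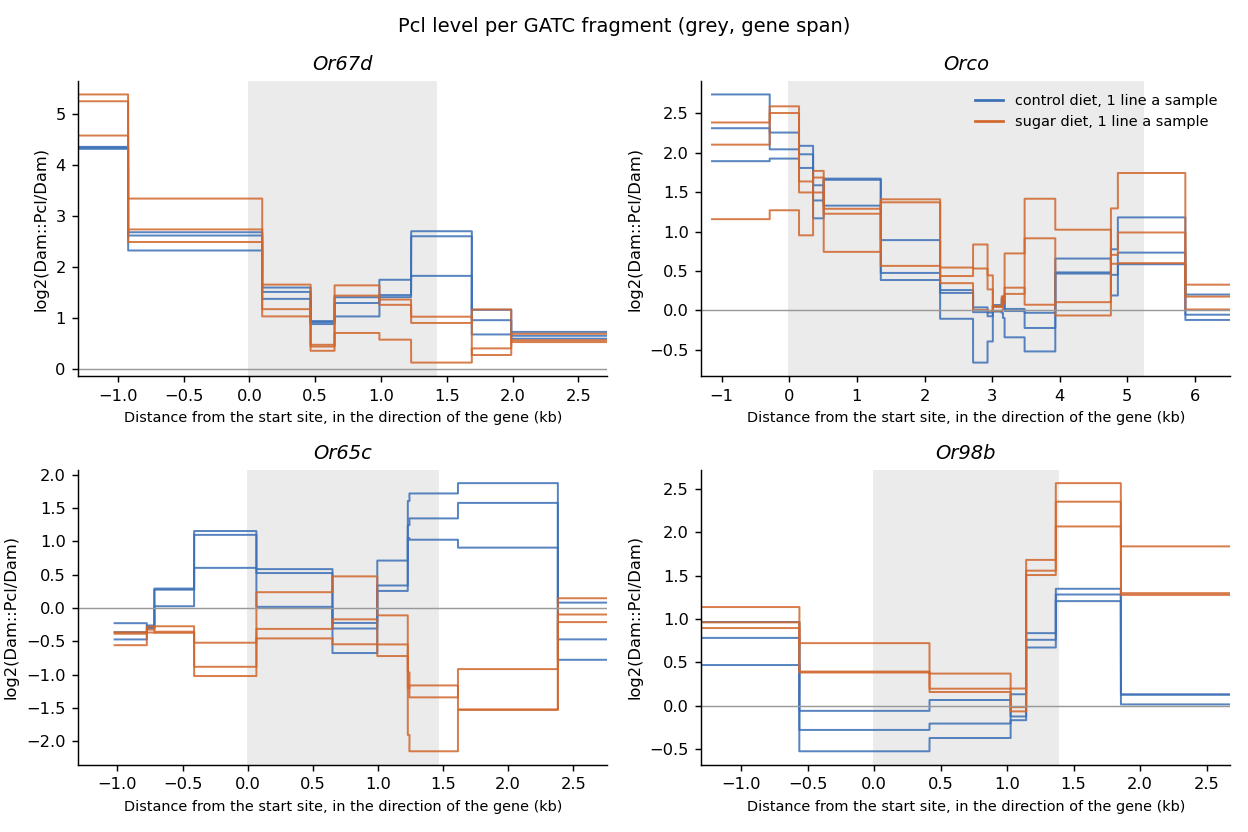
Log2 ratio of Dam::Pcl to Dam of each GATC fragment (vertical axis) against the distance from the start site (horizontal axis) at Or67d, Orco, Or65c and Or98b, with a line for each of the 3 control diet and 3 sugar diet replicates and the gene span in grey. At Or65c the fragments near 1428 bp lie above 1 on the control diet and below -1 on the sugar diet, and at Or98b the fragment at 1610 bp lies above 2 in all 3 sugar replicates.

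The difference of a member went with the base composition of its window. Across the 60 members GC content and the difference had Pearson's r of 0.70 and Spearman's rho of 0.71, and across all genes these were 0.67 and 0.68. Members share libraries and some share fragments, so these are descriptions without a test. Among the 20 members of lowest GC (35.4% to 40.1%) none rose and 10 fell, with a median difference of -0.22. The 3139 genes in that GC range had a median of -0.40, with 1.5% higher and 62.2% lower by the test. In the middle 20 (40.2% to 43.7%) none rose and 7 fell, with a median of -0.14, and the 6094 genes in that range had a median of -0.09, with 7.45% higher and 27.7% lower. Among the 20 of highest GC (43.9% to 48.7%) 9 rose and 2 fell, with a median of 0.20, and the 6578 genes in that range had a median of 0.16, with 35.7% higher and 7.69% lower.

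In a further fit each library's trend on GC was removed. The median difference of the members became 0.04, and 9 members rose (14.6% of all genes did) and 9 fell (18.7% of all genes did). Of the 28 calls, 9 held in the same direction, 4 (Or33a, Or82a, Or1a and Or2a) were called in the opposite direction and 15 were lost, while 5 other members gained a call. How many calls over all genes held, reversed or were lost was not counted, in this fit or in the scalings below. Or65c fell by 0.71 (adjusted p = 0.00586, limma) and Or30a by 0.79 (adjusted p = 0.00201) in that fit, and Or98b rose by 0.65 (adjusted p = 0.00287), Or43a by 0.42 (adjusted p = 0.00949) and Or94b by 0.42 (adjusted p = 0.0188). Or67a, Or65b, Or35a, Or42a, Or85a, Or59b and Or59c were not called. The falls of Or43b and Or47a held at -0.31 and -0.28. Or33a, the member of lowest GC, fell by 0.41 without the correction (adjusted p = 0.00782) and rose by 0.37 with it (adjusted p = 0.0192). Which of these fits is nearer to the binding of Pcl was not tested. Quantile normalization gave 12 members that rose (29.3% of all genes) and 16 that fell (25.0%). Scaling each library by its median and deviation gave 11 (29.7%) and 15 (23.6%), and 23 of the 28 calls held under each of the 2.

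**Figure D3:**
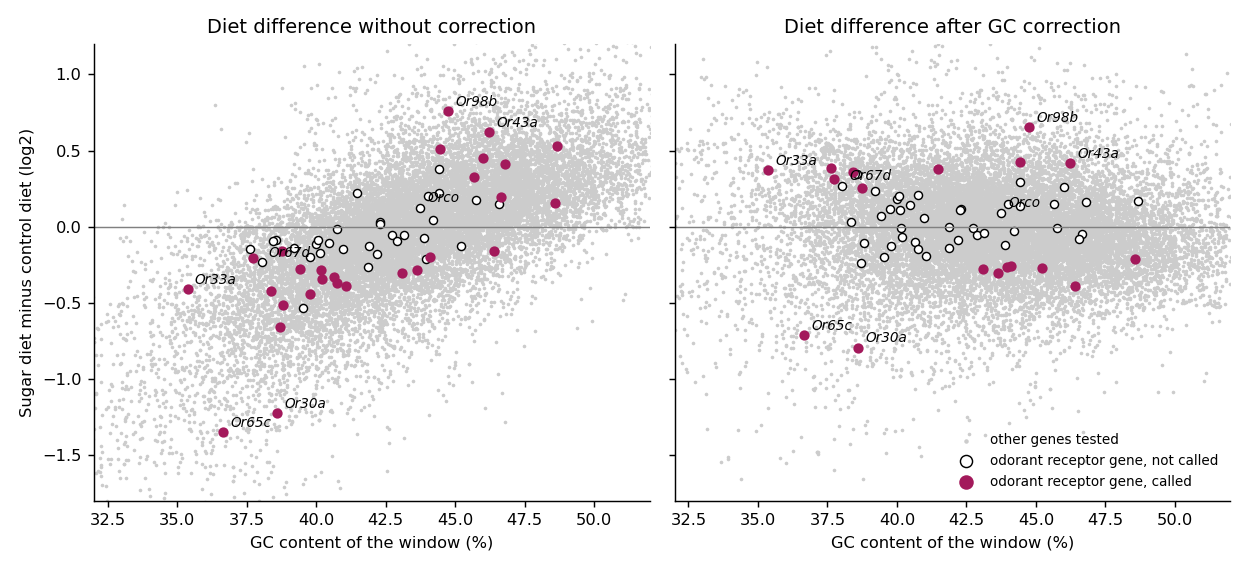
Difference in log2 ratio between the sugar and the control diet (vertical axis), without correction on the left and after GC correction on the right, against the GC content of the window in percent (horizontal axis) for the 60 odorant receptor genes (filled where called) and, in grey, the other genes that fall within the axes. On the left all 9 members that rose have a GC content of at least 43.9%, and Or65c and Or30a lie below the rest at 36.7% and 38.6%.

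Most odorant receptors are distant relatives, with a median protein identity of 20.4% over 1770 pairs of translated reference genes and at most 25.5% between Orco and another member. The exception is Or19a and Or19b, a duplicated pair of antennal receptors with 99.2% identity, in which 53.3% and 53.5% of 75-base words occur elsewhere in the genome. Reads of that pair could be placed on either copy, and their values are uncertain. Or19a read 0.06, 0.20 and 0.07 on the control diet and -0.13, -0.03 and -0.10 on the sugar diet (adjusted p = 0.0324), and Or19b differed by -0.12 (adjusted p = 0.142). No other pair exceeded 80%, and 4 members had more than 10% repeated words, which besides this pair were Or82a and Or92a.

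Tandem relatives did not all move together. Or22a and Or22b, co-expressed receptors for fruit esters with 77.6% identity, differed by -0.12 and -0.20 and neither passed the test (adjusted p = 0.255 and 0.0847). Or85b and Or85c, with 67.4% identity, fell by 0.29 and 0.37 (adjusted p = 0.0427 and 0.00563). In the Or33 cluster Or33a fell, while Or33b and Or33c differed by -0.14 and -0.01 (adjusted p = 0.281 and 0.957). Because neighbours share fragments, the members of a cluster are not independent, and differences between them were not tested.

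Grouped by the organ or sensillum that uses them, no class with more than 1 gene was uniform in direction. Of 25 antennal basiconic receptors, 2 rose and 7 fell, with a median difference of -0.15. Of 12 trichoid and intermediate receptors, 3 rose and 5 fell, with a median of -0.17. The 13 larval receptors had 2 that rose and 4 that fell (median 0.03), and the 7 palp receptors 1 and 2 (median -0.01). Differences were below 0 in 22 basiconic, 8 trichoid and intermediate, 6 larval and 4 palp receptors. These are 88.0%, 66.7%, 46.2% and 57.1%, against 51.0% of all genes. The median GC content of these classes was 40.2%, 42.5%, 42.3% and 42.3%. The coeloconic receptor Or35a fell and Orco was not called. Over all genes 22.3% rose and 25.7% fell with a median of -0.01, and the difference between classes was not tested. Among the 60 gustatory receptor genes 10 rose and 20 fell (median -0.10), and among the 66 ionotropic receptor genes 11 rose and 20 fell (median -0.08), again beside 22.3% and 25.7% of all genes.

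**Figure D4:**
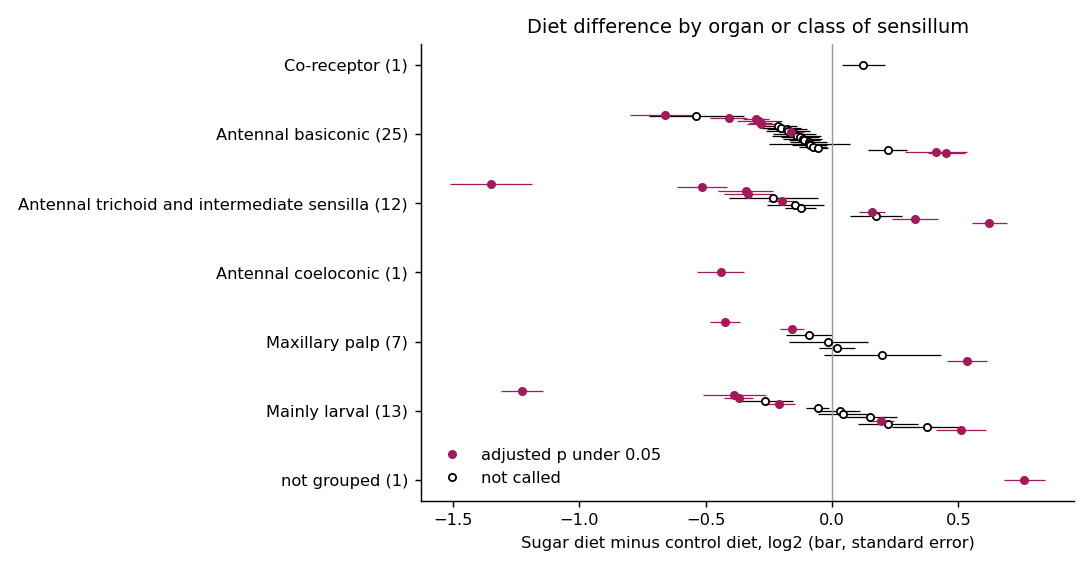
Difference in log2 ratio between the sugar and the control diet of each odorant receptor gene (horizontal axis) by the organ or sensillum class that uses it (vertical axis), with filled points for members called by limma at an adjusted p under 0.05 and bars for the standard error. The medians are -0.15 for 25 basiconic, -0.17 for 12 trichoid and intermediate, 0.03 for 13 larval and -0.01 for 7 palp receptors, and every class with more than 1 gene holds members on both sides of 0.

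Averaged around the start sites, the signal of the family was not centred on the genes. In the 500 bp before the start the mean over members was 0.48, 0.44 and 0.33 in control replicates 1 to 3 and 0.01, 0.24 and 0.21 on the sugar diet. The protein-coding genes had 0.27, 0.17 and 0.09 there on the control diet and -0.08, 0.04 and 0.04 on the sugar diet. Inside the genes, at 500 to 1000 bp, the members had their lowest control values, 0.17, 0.16 and 0.12, and the sugar replicates read 0.05, 0.19 and 0.09, overlapping them. The highest control values, 0.53, 0.47 and 0.41, were at 1500 to 2000 bp before the start. In that bin the sugar replicates read 0.203, 0.406 and 0.356, so the highest lay just below the lowest control replicate at 0.4067. The sugar replicates also lay below all control replicates in the bin just before the start and at 1000 to 1500 bp after it. In the latter the control replicates read 0.37, 0.32 and 0.26 and the sugar replicates 0.05, 0.25 and 0.13. At 4000 to 4500 bp before the start the highest sugar replicate, 0.2995, was next to the lowest control replicate, 0.2996. At 2500 to 3000 bp and 4500 to 5000 bp after the start the sugar replicates lay above all control replicates. In the remaining bins the diets overlapped.

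**Figure D5:**
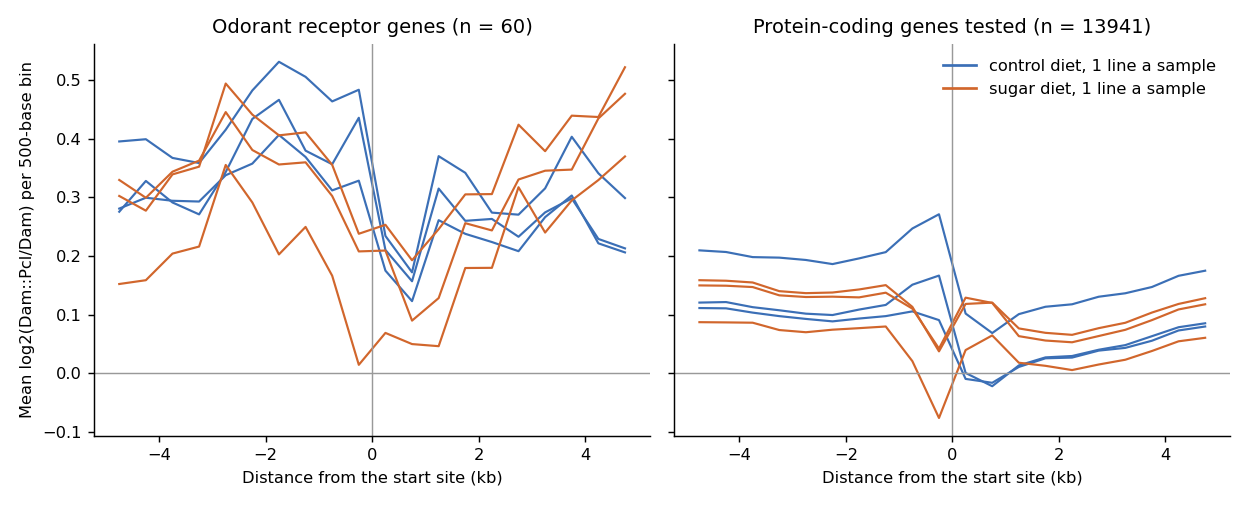
Mean log2 ratio of Dam::Pcl to Dam in 500-bp bins (vertical axis) by distance from the start site (horizontal axis), over the 60 odorant receptor genes and over protein-coding genes, with a line for each of the 3 replicates of a diet. In the bin just before the start the members read 0.33 to 0.48 on the control diet and 0.01 to 0.24 on the sugar diet.

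Of 18 regulators and partners of odorant receptors, 4 rose, 5 fell and 7 met a peak common to a diet's replicates. Beside these counts, 22.3% of all genes rose, 25.7% fell and 6.55% met such a peak. The listed factors ranged widely on the control diet: 6 of the 18 genes had means above 1, while others, such as amos at -0.15 and mip130 at -0.48, lay below the receptors' median of 0.22. Lozenge (lz), which specifies basiconic and trichoid neurons, stood at 3.67, 3.52 and 3.25 on the control diet and 3.22, 3.57 and 3.55 on the sugar diet, and acj6, a POU factor for receptor choice, at 2.82, 2.73 and 2.37 against 2.14, 2.58 and 2.59. Fer1 and sim, at 3.38 and 2.66 on the control diet, were also not called. The proneural gene ato rose from 2.50, 2.40 and 2.24 to 2.99, 3.00 and 3.11 (adjusted p = 0.00301), and still rose after GC correction, by 0.36 (adjusted p = 0.0398). The POU factor gene pdm3 rose by 0.40 (adjusted p = 0.0363), rn, a zinc-finger factor gene, by 0.24 (adjusted p = 0.0415), and mip130, of a chromatin complex that represses receptor genes, by 0.34 (adjusted p = 0.00775). The proneural gene amos fell by 0.27 (adjusted p = 0.0181) and the factor gene onecut by 0.48 (adjusted p = 0.00882). After GC correction pdm3, rn, amos and onecut were not called (adjusted p = 0.117, 0.0667, 0.205 and 0.940), and mip130 was at -0.17, the opposite direction, without a call (adjusted p = 0.0742).

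Genes for 4 proteins that act beside the receptors had control means between -0.07 and 0.31. The odorant-binding protein gene lush, required with Or67d for pheromone responses, fell from 0.10, -0.12 and 0.08 to -0.73, -0.83 and -0.43 (adjusted p = 0.00763). Snmp1, a CD36-related partner of Or67d, was not called (adjusted p = 0.107), and its relative Snmp2 fell by 0.48 (adjusted p = 0.005). The lipid flippase gene ATP8B, needed for odorant receptor function, fell by 0.45 (adjusted p = 0.00259). After GC correction ATP8B was still lower (-0.21, adjusted p = 0.036), whereas lush and Snmp2 were not called.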

How the data were processed

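TaDa libraries of Dam::Pcl and of Dam alone were made from the heads of flies on each diet. Reads whose quality score was under 30 were discarded by the authors, who then ran the damidseq pipeline, which mapped the rest to dm6 (BDGP6) with Bowtie2, extended them to 300 bp or the next GATC, and deposited log2 ratios of Dam::Pcl to Dam per GATC fragment. No depth is recorded in these ratios, so none of the values has a counting interval. An exact 0 in a replicate was never below 0 in another replicate of the same diet, but was so in 8.52% to 15.8% of fragments in the other diet. Replicates of a diet may therefore have been set against the same Dam-only profile, and the part of this in the results was not tested.

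Members, gene lists and tests were chosen with earlier results of these data known. The length-weighted mean over each gene and 1 kb to either side was computed for Ensembl BDGP6 genes with at least 2 fragments (Python 3.11.15, numpy 2.4.6, pandas 2.3.3, scipy 1.17.1). The 3 sugar and 3 control libraries were compared with limma 3.58.1 in R 4.3.3 (lmFit and eBayes, Benjamini-Hochberg adjustment over all 18119 genes, threshold 0.05). Peaks were runs of at least 2 fragments above quantiles 0.95 to 0.99 of a library, at a false discovery rate of 0.01 from 100 shuffles. Alternatives were GC correction, other scalings, windows, filters and thresholds, a replicate block and leaving out each library. Genes named were Orco, the 6 with the highest and the 6 with the lowest control mean, the 6 largest called differences each way, members at a common peak, near-identical pairs, shared-fragment clusters and the called regulators. Other names were chosen after their values were seen. Sequences and protein identities came from the RefSeq Release 6 assembly with Biopython 1.88. Statistics were tested on simulated data first. The Dam-only libraries were not analysed here.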

Additional observations from a re-analysis of the deposited data

How the results depend on the processing

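Against 28 members called (9 higher and 19 lower on the sugar diet), beside 48.0% of all genes, GC correction gave 18 (9 and 9; 33.2% of all genes), an adjusted p under 0.01 gave 12 (4 and 8; 25.5%), and a fold test at 1.5 gave 1 (0 and 1; 1.34%). A minimum of 10 fragments left 45 members, of which 18 were called (4 higher), beside 50.6% of all genes. With the replicate number as a block 15 were called (5 and 10; 35.0% of all genes), all among the 28, and the block with GC correction gave 10 (6 and 4; 21.7%). Deviations of same-numbered libraries from their diet means correlated across genes at -0.30, 0.21 and -0.21. Other pairs of a control and a sugar library gave -0.28 to 0.46, so same-numbered libraries did not deviate together more than others. Leaving out each library gave 17 to 24 called members, 5 to 10 higher and 11 to 19 lower, beside 33.6% to 42.2% of all genes called. The median difference was 0.0445 under GC correction with and without the block. The median control level was 0.17 after GC correction and 0.14 without flanks. Members at a common peak numbered 0 at the stricter peak threshold, 0 without flanks and 3 where 2 of 3 replicates sufficed, which added Or67d and Orco. The matching shares of all genes were not computed. Common peaks on the control and the sugar diet numbered 1505 and 1522 at the main setting. They numbered 427 and 384 at the stricter threshold and 1702 and 1778 where 2 of 3 replicates sufficed. The sign changed for 22 members under GC correction, 11 in the start-site window, 12 with 5 kb flanks and 7 without flanks. Sign changes over all genes were not counted. Leaving aside those called neither before nor after, direction changed under GC correction, with and without the block, for Or22c (-0.047), Or33a (0.37), Or42a (0.0322), Or67b (0.0695), Or71a (0.36), Or82a (0.25), Or1a (0.31), Or2a (-0.21) and Or13a (0.39). It changed in the start-site window for Or23a (-0.25) and Or2a (-0.0717), with 5 kb flanks for Or45b (0.23), Or65c (0.00888), Or85d (-0.36) and Or85f (0.33), and without flanks for Or46a (0.0043) and Or19a (0.0181). The cause of these changes was not tested. Or65c, Or30a, Or67a, Or98b, Or43a, Or59c, Or94b and Or85a kept their call whichever library was left out. They were not the only members to do so: Or33a, Or35a, Or42a, Or43b and Or47a, all lower on the sugar diet, did too. The share of all genes that kept a call in every such fit was not computed. Depth is unknown, and with 3 libraries a diet small differences could not be told from the spread.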
